A study of Brassica rapa and Brassica oleracea and Brassica napus with 3 samples.

Results

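Genes whose DNA methylation was concentrated in the last of 4 bins along the gene body were examined in young leaves of *Brassica oleracea* and *B. napus*. They were chosen by the methylation level itself. This last body bin, next to the annotated gene end, is called the end bin. The rule asked for an end bin of 15% or more and a mean under 5% over the 3 earlier body bins. Only genes on numbered chromosomes with a value in every body bin were considered, and 911 of 136836 such genes met the rule. They comprised 483 genes of the *B. oleracea* genome (Co), and, in *B. napus*, 180 genes of the A subgenome (An) and 248 genes of the C subgenome (Cn). The body bins selected these genes and are given as a description. The flanks, the annotated untranslated regions (UTRs), the neighbouring genes and the homoeologs were not part of the rule.

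Methylation was measured by BS-seq, in which bisulfite turns unmethylated cytosines into bases read as thymine while methylated cytosines are still read as cytosine. There was 1 library each from *B. oleracea* JZS and *B. napus* ZS11, both from young leaves of plants aged 2 weeks (14 d in the labels), and no treatment is named. *B. napus* is an allotetraploid that arose from hybridization, and its C subgenome derives from relatives of *B. oleracea*, so Co and Cn are matching lineages. A level is the methylated fraction of cytosines in a bin, given here in percent. There were 4 bins upstream of the gene, 4 over the body and 4 downstream, in the direction of transcription. This direction was checked in *B. napus* and taken to be the same in *B. oleracea*, which has no UTR rows. The number of reads behind a bin is unknown and the cytosine context is not separated. Each species was sequenced once, so replicates are lacking and no test was made. The spread given is the SD over the chromosomes of a (sub)genome, and exact binomial intervals cover the counting of genes only. An and Cn share a library, whereas a difference between species cannot be told apart from a difference between libraries or annotations.

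In plants, cytosines are methylated in CG, CHG and CHH contexts (H being any base but G). Transposable elements usually carry methylation in all contexts, kept there by maintenance methyltransferases and by the RNA-directed pathway. Many moderately and steadily expressed genes carry methylation in the CG context only, mostly over internal exons, and such body methylation usually declines toward the start and the end of the gene. The last part of a gene holds the final coding exon, the stop codon, the 3′ UTR and the polyadenylation site. The identifiers of the genes are given as in the files. No gene symbols, coordinates or sequences were matched to them, so their functions are not described.

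The class was a small fraction of genes in every (sub)genome. In Co it held 0.927% of 52082 genes (exact 95% interval 0.847% to 1.01%), with an SD of chromosome shares of 0.174 (n = 9). Within *B. napus*, the class made up 0.471% of 38185 An genes (0.405% to 0.545%, SD 0.122, n = 10) and 0.533% of 46569 Cn genes (0.468% to 0.603%, SD 0.137, n = 9). An and Cn thus differed by less than the SD of their chromosomes. Co exceeded Cn by more than either SD, but this order turned when both limits were scaled by the mean level of each library. The class then held 0.637% of Co genes and 0.644% of Cn genes. Chromosome A07 had the lowest share in An (0.307%), and C08 had the lowest among the C chromosomes in both Co (0.602%) and Cn (0.299%). The highest shares were on A04 in An (0.730%), C06 in Co (1.12%) and C04 in Cn (0.709%).

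**Figure D1:**
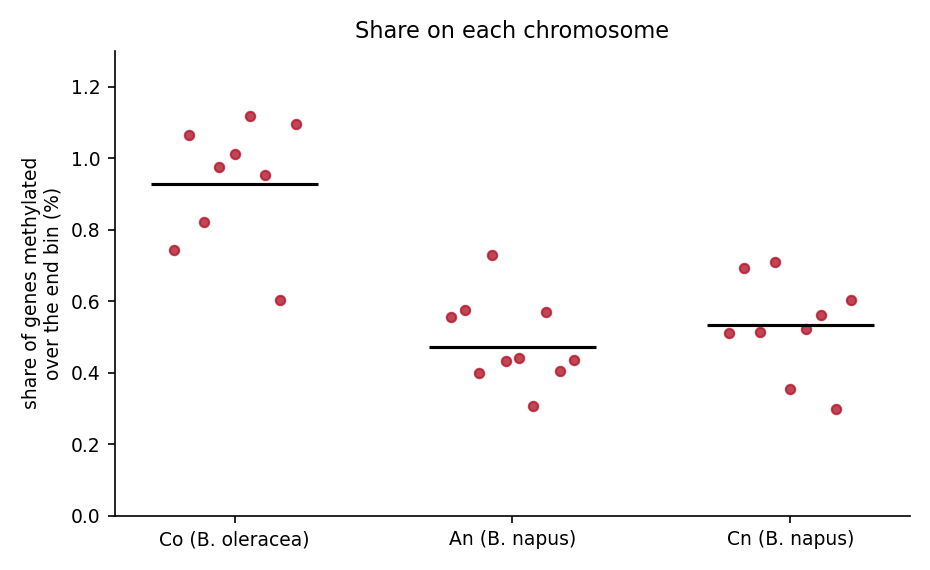
Share of genes methylated over the end bin on each chromosome (vertical axis, percent of genes with all body bins valued), with one point per chromosome in identifier order and a horizontal line at the share of the whole (sub)genome. The Co chromosomes lie between 0.602% and 1.12%, and the An and Cn chromosomes overlap widely.

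A methylated end bin was itself common and was rarely confined to that bin. Among all genes with body values, 11438 Co, 2463 An and 5326 Cn genes had an end bin of 15% or more. The class made up 4.22%, 7.31% and 4.66% of these, and the remaining genes had a higher level in the earlier body bins as well. Within the class, the end bin was mostly just above the limit that defined it. The median end bin was 19.3% in Co and 19.6% in both An and Cn. An end bin under 20% was found in 270, 94 and 130 genes, and one of 30% or more in 54, 17 and 22 genes. The mean level over the body of these genes went from the first body bin (0.834% in Co, 0.636% in An and 0.857% in Cn) to the third (6.59%, 6.52% and 5.98%) and then to the last (21.6%, 21.6% and 21.4%).

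The third body bin of many of these genes was raised as well. It reached 5% or more in 324 of 483 Co genes (67.1%), 116 of 180 An genes (64.4%) and 147 of 248 Cn genes (59.3%). Both body bins before that one were at 0 in 96 Co, 37 An and 59 Cn genes. These genes are not the opposite of the former, since the sets can overlap. BolC06g023490.2J, for example, had 0%, 0% and 14.4% in its earlier body bins. Neighbouring bins of one region were correlated across all genes, with Spearman's rho from 0.769 to 0.864 over both libraries, against 0.299 to 0.450 across the gene end. A small share of them, 0.297% to 0.683%, had exactly equal values above 0, against at most 0.0137% across the gene end. The layout of the bins within a region is not stated, and whether overlapping bins add to the level of the third body bin was not tested.

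**Figure D2:**
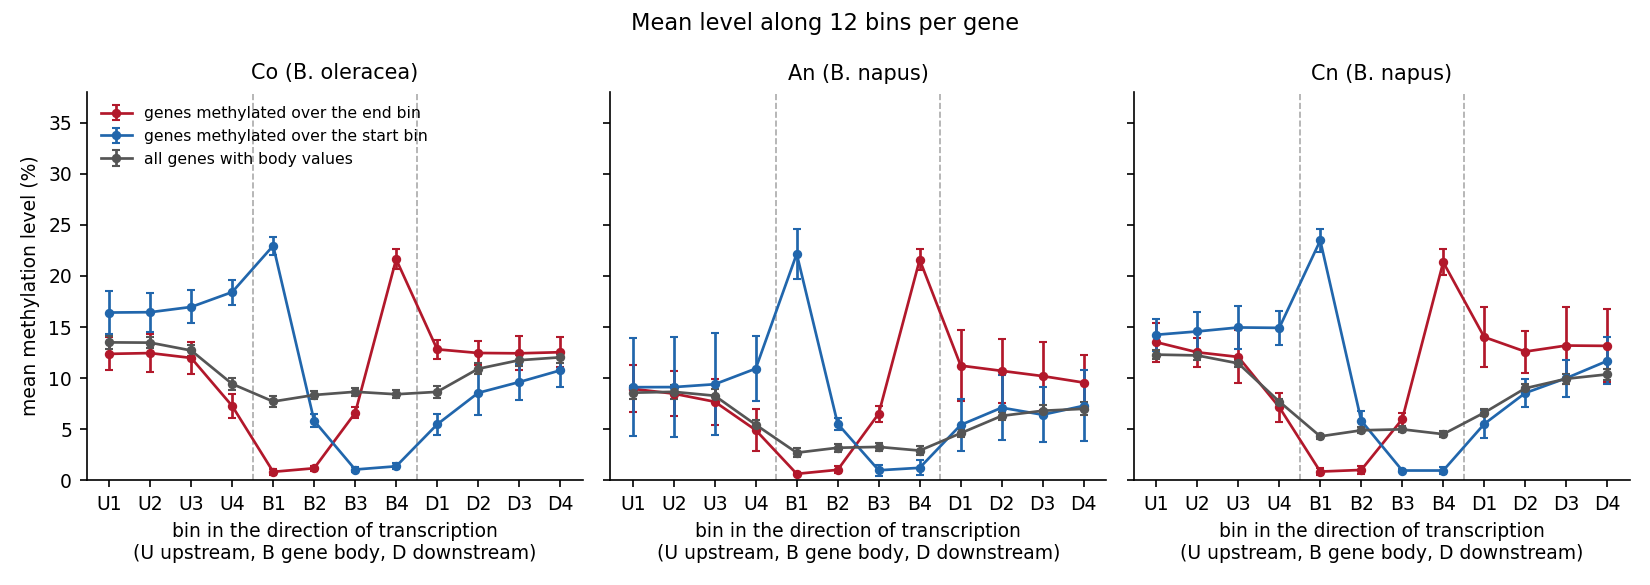
Mean methylation level (vertical axis, percent) in the 12 bins along a gene, with 4 upstream (U), 4 body (B) and 4 downstream (D) bins, for genes methylated over the end bin, genes methylated over the start bin and all genes with body values in each (sub)genome. Bars are the SD of chromosome means. Levels in bins B1 to B4 chose the red and blue sets. Outside the body, the red line lies above the grey line in the first downstream bin of every panel and close to it upstream.

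The highest end bins belonged to genes with unlike flanks. In Co, BolC06g023490.2J had the highest end bin of any gene in the class, 90.6%, after 0%, 0% and 14.4% in the earlier body bins. The level fell to 4.18% in its first downstream bin and was 24.6% in the bin after that. BolC01g007620.2J had 56.7% in the end bin and 1.57% directly downstream, and none of its flank bins exceeded 8.19%. BolC05g016500.2J, at 56.6%, was instead followed by a methylated flank with 28.0%, 25%, 25.5% and 29.3% in the 4 downstream bins, beside upstream bins of at most 1.81%. These 3 genes show the range of the class in this library, from a level limited to the end bin to one that ran on through the downstream flank.

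End bins in *B. napus* did not reach such levels. The class was smaller in An and Cn than in Co, and the reads behind these highest levels are unknown. In An the highest were 43.5% in BnaA04G0134800ZS, 41.7% in BnaA05G0322800ZS and 40.0% in BnaA06G0098600ZS. The first downstream bins of these genes were at 15.3%, 31.2% and 15.8%, so each had a methylated flank bin next to the gene end. In Cn, BnaC03G0311200ZS had 50.0% in the end bin and 10.5% downstream, BnaC03G0514000ZS had 44.3% and 83.3%, and BnaC02G0176600ZS had 38.1% and 13.4%. The last of these has 2 coding exons, upstream bins at 0 and body bins of 0%, 0% and 1.94% before the end bin. Methylation in BnaC02G0176600ZS was thus limited to the end bin and the bin next to it, since its other downstream bins were at most 0.374%.

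Between 34.9% and 41.3% of the class were continuous with a methylated flank, a larger share than among all genes and a smaller one than among genes with a methylated end bin and a higher body. The first downstream bin was at 15% or more in 181 of 483 Co genes (37.5%, exact 95% interval 33.1% to 42.0%), against 24.8% of all genes with body values and 68.2% of the other genes with an end bin of 15% or more. In An, 61 of 175 genes (34.9%, 27.8% to 42.4%) had such a bin, against 11.5% and 56.7%. For Cn the class had 102 of 247 genes (41.3%, 35.1% to 47.7%), against 17.9% and 56.6%. Each share in the class was above that of all genes by more than the SD of its chromosome shares, which was 5.10 for Co, 9.27 for An and 10.8 for Cn. The class shares of the (sub)genomes differed from each other by less than the largest of these SDs. A further 5 An and 1 Cn genes had no value in the first downstream bin.

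A low flank was less frequent in the class than among all genes. The first downstream bin was under 5% in 205 Co genes (42.4%), 75 An genes (42.9%) and 83 Cn genes (33.6%), against 55.9%, 73.9% and 63.4% of all genes with body values. It was at exactly 0 in 52, 19 and 18 of these genes (10.8%, 10.9% and 7.29% of the class, against 20.2%, 29.5% and 23.0%). An intermediate level of 5% to under 15% was present in 97 Co, 39 An and 62 Cn genes (20.1%, 22.3% and 25.1%, against 19.4%, 14.6% and 18.7%). In Co this share was close to that of all genes. The mean first downstream level was 12.8% ± 0.907 for Co, 11.2% ± 3.47 for An and 14.0% ± 2.92 for Cn (SD of chromosome means), against 8.66%, 4.61% and 6.62% over all genes with body values. The medians were 8.42%, 7.94% and 12.1%, against 3.15%, 0.420% and 1.43%. The flank was higher than the end bin in 114 Co (23.6%), 38 An (21.7%) and 66 Cn genes (26.7%) of the class, against 28.0%, 22.9% and 23.3% of the other genes with an end bin of 15% or more. Across the genes of the class, Spearman's rho between the end bin and the first downstream bin was 0.223 (Co), 0.194 (An) and 0.162 (Cn), against 0.433, 0.224 and 0.2999 over all genes with body values. The rule limits the range of the end bin in the class, so these values cannot be set against each other as strengths of a relation. These bins come from the same library, and genes are not independent replicates.

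**Figure D3:**
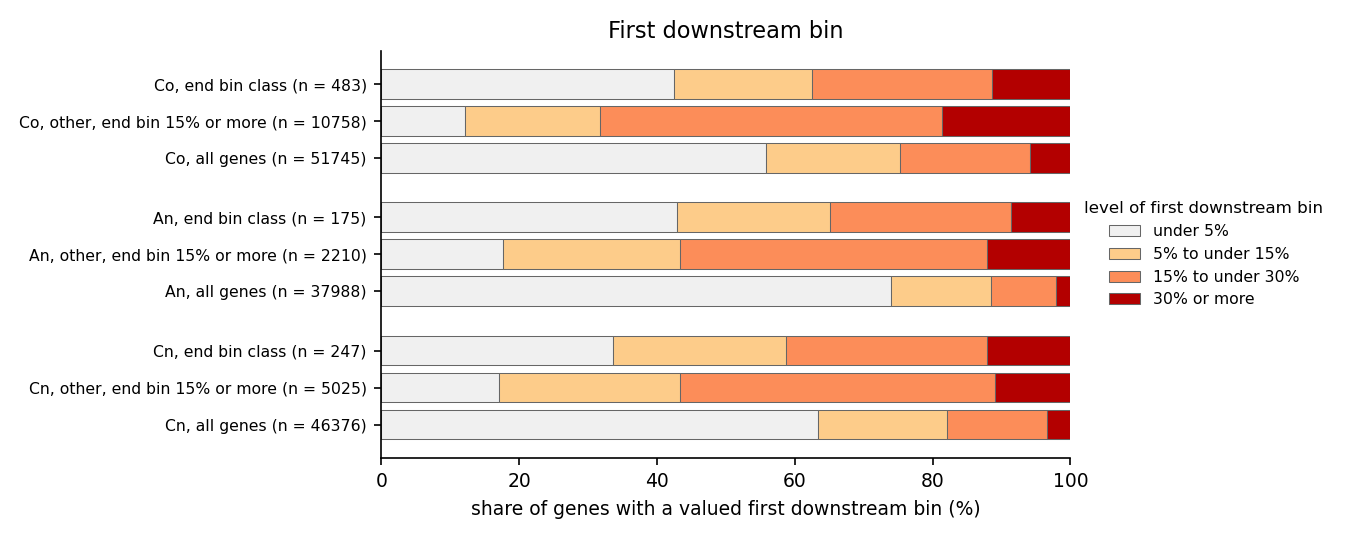
Level of the first downstream bin in 4 classes (colours), as shares of genes with a value there (horizontal axis, percent), for the genes methylated over the end bin, the other genes with an end bin of 15% or more, and all genes with body values in each (sub)genome. In every (sub)genome the orange and red part of the bar (15% or more) is longer for the end bin class than for all genes and shorter than for the other genes with a methylated end bin, for example 37.5%, 24.8% and 68.2% in Co.

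Where the flank was methylated, single genes showed either a local peak or a long run. The level rose steeply past the gene end in BolC08g047750.2J, with 15.8% in the end bin and 60.4% downstream. BolC05g025620.2J had 19.1% in the end bin and 60.0%, 74.4%, 69.4% and 39.8% downstream. Its levels were thus higher past the annotated gene end than in the body. In An, BnaA02G0366900ZS, a gene with 24 coding exons and an annotated 3′ UTR, had 39.0% in the end bin and 43.2%, 48.5%, 47.2% and 42.5% downstream. BnaA02G0316500ZS had 35.4% and then 38.3%, while its upstream bins were all at 0. The Cn gene BnaC02G0486900ZS had 27.0% in the end bin and 52.9%, 46.6%, 34.7% and 17.8% downstream. BnaC03G0514000ZS, at 83.3% directly downstream, was back at 12.2% in the next bin. By contrast, BnaA09G0063400ZS had 40.0% in the end bin and 0% beyond it, BnaA03G0373800ZS had 39.1% and 3.63%, and BnaC04G0586600ZS had 35.7% and 3.24%. None of the further downstream bins of these genes exceeded 8.90%.

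Over the whole downstream flank, the class was again mixed. Among genes with all 4 downstream bins valued, a run of methylated bins that began at the gene end and covered the whole flank was present in 86 of 461 genes in Co (18.7%), 19 of 171 in An (11.1%) and 45 of 236 in Cn (19.1%), against 14.1%, 4.52% and 8.27% of all genes. A shorter run of 1 to 3 bins began there in 84, 41 and 51 genes (18.2%, 24.0% and 21.6%, against 10.1%, 6.45% and 9.23%). The remaining 291, 111 and 140 genes had no bin of 15% or more at the gene end, and 84, 32 and 53 of these had one further out (18.2%, 18.7% and 22.5% of the class, against 25.04%, 19.2% and 26.7% of all genes). At least one downstream bin of 15% or more was found in 55.1% of these genes in Co, 53.8% in An and 63.1% in Cn, against 49.2%, 30.2% and 44.2% of all genes. Every downstream bin was under 5% in 21.0%, 24.6% and 19.9% of them, against 29.3%, 52.0% and 37.2%. The upstream flank was below that of all genes in Co and close to it in An and Cn. Its mean level was 15% or more in 30.1% (Co), 19.2% (An) and 31.2% (Cn) of the class, against 36.2%, 19.8% and 31.8%.

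An annotated 3′ UTR, the transcribed stretch between the stop codon and the polyadenylation site, was less frequent in the class than among all genes. In *B. napus*, 14 of 180 An genes (7.78%, exact 95% interval 4.32% to 12.7%) and 19 of 248 Cn genes (7.66%, 4.68% to 11.7%) had one, against 21.4% and 17.9% of all genes with body values. The shares of An and Cn did not differ beyond the SD of their chromosomes (8.05 and 6.39), while each lay below the share of all genes by more than this SD. The Co annotation has no UTR rows, so its genes were not counted. Where no 3′ UTR is annotated, the gene end may be that of the coding sequence, and downstream bins may hold transcribed sequence. The share of 5′ UTRs was lower to a similar degree, with 7.78% in An and 7.26% in Cn, against 19.9% and 16.6%. The lower share was thus found for UTRs at either end of the gene.

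Genes with more methylation along the body had fewer UTRs still. Among the other genes with an end bin of 15% or more, 2.23% in An and 1.497% in Cn had a 3′ UTR. Among genes with every body bin under 5%, the shares were 23.1% and 21.0%. The class lay between both sets in both subgenomes. How well a gene was expressed or supported when UTRs were annotated is not given in the files, and its part in these shares was not tested. Within the class, the first downstream bin was at 15% or more in 6 of 11 An genes with a 3′ UTR and 55 of 164 without, and in 5 of 18 and 97 of 229 Cn genes. The interval for the An genes with a 3′ UTR ran from 23.4% to 83.3%, which is too wide to order them against the genes without.

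**Figure D4:**
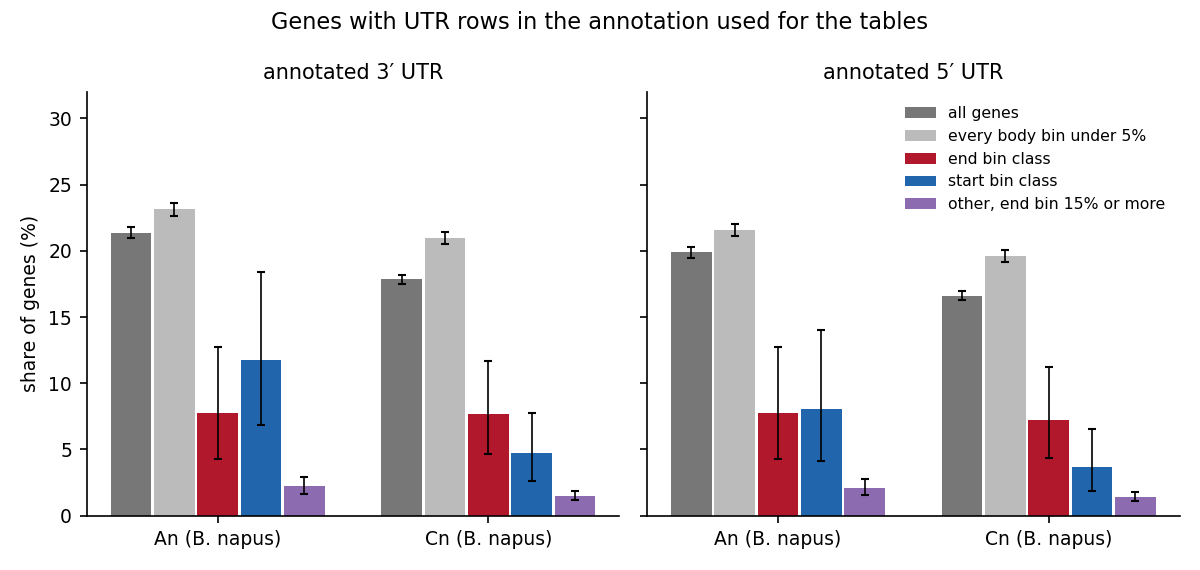
Share of genes with an annotated 3′ UTR (left) and 5′ UTR (right) in percent, for An and Cn, with exact 95% intervals that cover the counting of genes only. The end bin class (red) stands at 7.78% in An and 7.66% in Cn for 3′ UTRs, below all genes (dark grey) and above the other genes with an end bin of 15% or more (purple).

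In the exon rows, the last coding exon was the highest in most of the genes where it could be placed. This follows largely from the rule, since that exon reaches into the end bin and the other exons lie before it. The levels and their contrast with all genes are therefore a description. Exon rows rest on the same reads as the body bins and are a closer view of them, not an independent measure. An exon was placed at the gene end when its downstream flank equalled that of the gene and was not wholly at 0. Genes with a downstream flank wholly at 0 were thus left out here, in the class and among all genes. Such a placement was possible for 379 Co, 125 An and 174 Cn genes with several coding exons. The median level of their last coding exon was 23.8%, 24.5% and 23.4%. The mean of the other coding exons of these genes had a median of 1.13%, 0.200% and 0.204%. The last coding exon was at 15% or more in 283, 91 and 122 of them (74.7%, 72.8% and 70.1%, against 23.3%, 8.05% and 12.8% over all genes). It was higher than every other coding exon in 285, 95 and 132 (75.2%, 76% and 75.9%, against 26.9%, 22.1% and 24.1%). In 90 Co, 28 An and 37 Cn genes, another coding exon was as high or higher, and the remaining genes had no value in any other coding exon.

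A 3′ UTR row that reached the gene end lies in the end bin, so its level follows from the rule and is a description. These rows were placed by the downstream flank in the same way as the exons. The median level of these rows was 26.7% in 11 An genes and 18.3% in 15 Cn genes, with 8 and 9 of them at 15% or more. Over all genes with such a row the median was 0 in both subgenomes, and 92 of 7387 An genes and 131 of 7655 Cn genes reached 15%. The median number of coding exons in the class was 3 in each (sub)genome, against 4 in Co and An and 3 in Cn over all genes. A single coding exon was found in 12.8% (Co), 13.9% (An) and 16.1% (Cn) of them, against 12.4%, 19.7% and 19.9%. Several transcripts were annotated for 4 An genes (2.22%, against 4.99%) and 3 Cn genes (1.21%, against 4.54%).

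The mirror class, with a first body bin of 15% or more and a mean under 5% over the 3 later ones, was of similar size. It held 358 Co, 136 An and 298 Cn genes. The end bin class was larger by 125 genes in Co and 44 in An, and in Cn it was smaller, with a difference of −50 genes. These differences depended on the limits, since with a limit of 30% for both classes the difference was −1 (Co), 2 (An) and −22 (Cn). The bin directly outside the methylated end was at 15% or more in 57.3% (Co, n = 354), 32.6% (An, n = 135) and 46.8% (Cn, n = 293) of the start bin class, where 27.0%, 13.5% and 20.9% of all genes had such an upstream bin. The end bin class had 37.5% (Co), 34.9% (An) and 41.3% (Cn). Such a downstream bin was found in 24.8%, 11.5% and 17.9% of all genes. In Co the share was lower for the end bin class under these limits. With limits scaled by library mean, it was 50.0% in that class, and the start bin class was not recounted. The exact 95% intervals of the start bin class were 52.0% to 62.6% in Co, 24.8% to 41.2% in An and 40.9% to 52.6% in Cn. They overlapped those of the end bin class in An and Cn only. These intervals cover the counting of genes within 1 library, so whether the classes differ was not tested in any (sub)genome. The share with a 3′ UTR in the start bin class was 11.8% in An and 4.70% in Cn. The end bin class had 7.78% in An and 7.66% in Cn, and the intervals of both classes overlapped (6.88% to 18.4% in An and 2.59% to 7.76% in Cn for the start bin class), so no order can be given.

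The genes next to those of the class were not uniformly methylated. A neighbouring gene, the next identifier on either side, had a mean body level of 20% or more for 143 of 464 Co genes (30.8%), 21 of 175 An genes (12%) and 53 of 233 Cn genes (22.7%), against 31.1%, 8.98% and 17.5% of all genes. In Co the direction of transcription relative to the identifiers was derived from the order of exons, taking the bin direction as given. The neighbour on the side of the methylated end had a median body level of 4.07%, against 3.51% over all genes. It was at 20% or more for 81 of 405 Co genes (20%, against 18.2%). An end-to-end arrangement with this neighbour was present for 47.8% of these genes, against 50.0% of all genes. The median body level of the 10 nearest genes was 8.11% (Co), 2.45% (An) and 4.88% (Cn), against 7.94%, 2.17% and 4.498%.

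Some genes of the class lay side by side. There were 7 pairs with consecutive identifiers, namely 3 Co, 1 An and 3 Cn pairs. The next identifier belonged to the class for 0.621% (Co), 0.556% (An) and 1.21% (Cn) of genes in the class, and for 0.862%, 0.443% and 0.479% of all genes. The shares of the class rest on 1 to 3 pairs each. The pairs differed in their flanks. The An pair BnaA06G0353100ZS and BnaA06G0353200ZS had end bins of 18.9% and 29.9%, with 0.323% and 2.22% downstream. The Cn pair BnaC07G0071000ZS and BnaC07G0071100ZS had end bins of 24.2% and 18%, with 20.4% and 20.9% downstream.

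Pooled over the (sub)genomes, most homoeologs of the class had a low end bin, as did listed genes in general. Those of the An genes were mostly at 5% or more. An end bin of 15% or more was found in a larger share of the partners than of the listed genes. Most of these partners did not meet the rule, since their earlier body bins were raised as well. Sets of matching genes in Co, An and Cn were taken from the part of the study's list that was at hand, with 1998 sets whose An genes lie mainly on A01 (1385) and A02 (609). They included 29 genes of the class (18 Co, 6 An and 5 Cn genes) in 28 sets. In 27 sets a single gene met the rule, in 1 set a pair did, and in none did all 3. The class made up 0.911% (Co), 0.309% (An) and 0.258% (Cn) of the listed genes. The partner of the same lineage (Co for Cn genes and Cn for Co genes) had an end bin of 15% or more in 3 of 23 cases (13.04%), and the other partners in 5 of 35 cases (14.29%). The latter were uneven, with 3 of 6 Cn partners and 1 of 6 Co partners of An genes, but 1 of 18 An partners of Co genes and 0 of 5 An partners of Cn genes. The set with a pair enters once from each of its 2 genes, so the cases are not independent. Its pair gives 1 of the 2 such Cn partners of Co genes and the 1 such Co partner of a Cn gene. Every other partner with an end bin of 15% or more had a mean of 5.21% to 28.0% in its earlier body bins. Among all listed genes, such an end bin was found in 3.31% (Co), 2.08% (An) and 2.91% (Cn). Pooled, an end bin under 5% was the most frequent state of the partners, with 16 of 23 in the same lineage and 26 of 35 in the others. Partners of Co genes made up most of these, with 17 of 18 An and 14 of 18 Cn partners. For An genes it was 2 of 6 Co and 2 of 6 Cn partners, with medians of 7.35% and 13.9%. Over all listed genes the medians were 1.16% (Co) and 0.265% (Cn). For Cn genes it was 2 of 5 Co and 5 of 5 An partners.

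In the set with a pair, that of BnaA02G0172900ZS, the C lineage met the rule, with 19.2% in BolC02g024510.2J and 32.3% in BnaC02G0222200ZS, against 4.08% in the An gene. The first downstream bin was methylated in all 3 genes, at 23.8% (Co), 29.4% (An) and 15.1% (Cn). The genes thus differed in the end bin, while the bin next to it was at 15.1% or more in each. The body of the An gene was low throughout, with 0%, 0.0877% and 1.13% before the end bin, and the third body bin of the Cn gene was already at 6.88%. This set was selected for holding the most genes of the class.

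**Figure D5:**
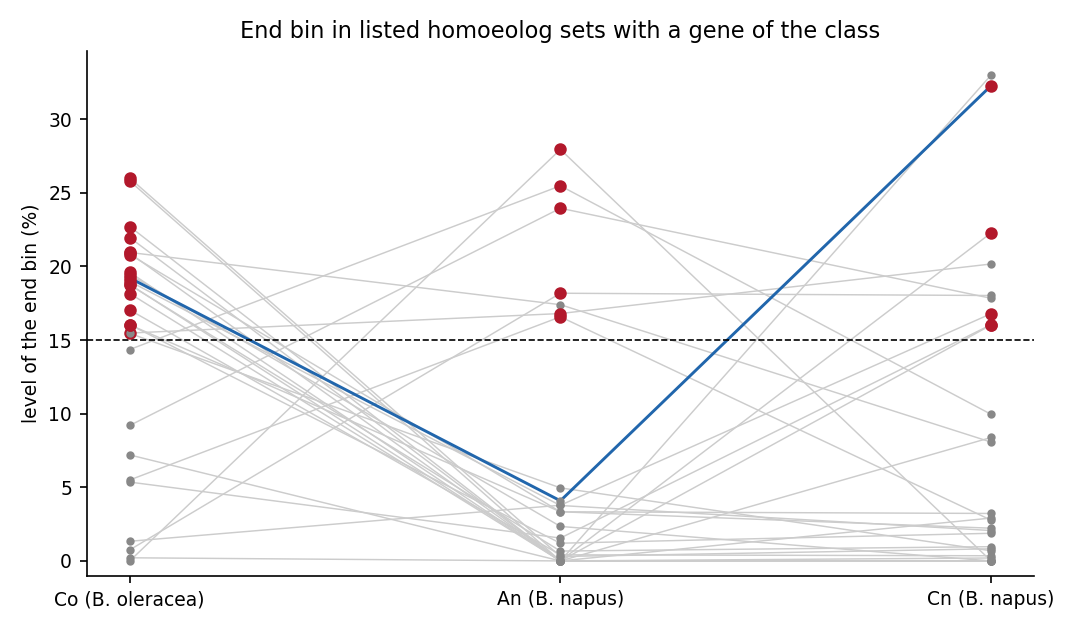
Level of the end bin (vertical axis, percent) in the 28 listed homoeolog sets with at least one gene methylated over the end bin, with one line per set across Co, An and Cn. Red points are genes of the class, grey points their partners, the blue line the set with a pair of such genes, and the dashed line the limit of 15%. The grey points lie mostly under 5%.

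The limits cut through a continuous range. The end bins just inside the limit were those of BolC03g004820.2J (15%), BnaA10G0127100ZS (15.2%) and BnaC02G0014100ZS (15%). Just outside lay BolC08g040840.2J (14.98%), BnaA10G0300500ZS (14.96%) and BnaC05G0496900ZS (14.97%). The mean of the earlier body bins was closest to its limit in BolC09g062860.2J (4.999%), BnaA03G0305200ZS (4.994%) and BnaC03G0634000ZS (4.996%). On the other side of that limit were BolC04g004130.2J (5.011%), BnaA04G0145400ZS (5.014%) and BnaC05G0047700ZS (5%).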

How the data were processed

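BS-seq libraries of young leaves, 1 each from *B. oleracea* and *B. napus*, were analysed. Results of the remaining library are not reported here, and its mean level was used only in scaling. The methods describe genomic DNA treated with bisulfite, whereas the protocols in the labels describe formaldehyde fixation (*B. oleracea*) or RNA extraction (*B. napus*). The authors filtered reads with Fastp, mapped them with BatMeth2 and deposited the methylated fraction of 12 bins per annotated feature. ZS11 is the only genome named for mapping in the methods, while the rows carry each species' own identifiers. Bin width, cytosine context, a coverage minimum and the conversion rate are not given in the sources used here, and depth is unknown.

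Gene rows were assigned to (sub)genomes by identifier. The direction of the bins was checked on the UTR rows of *B. napus*. Of 15529 genes with a 3′ UTR row and all flank bins valued, 94.2% had such a row with the gene's downstream flank. A 3′ UTR row with the gene's upstream flank was found in 0%. In *B. napus*, 83259 transcripts list the last coding exon again with a slightly different boundary, and the repeat was dropped. A mean equal to the limit did not count as under it. Shares carry exact (Clopper-Pearson) 95% intervals, and no test was made. The rule was tested on simulated data. The members and lists were chosen with earlier results of these data known. Named genes are those with the highest end bins, the largest drop to the flank, the highest first downstream bin, those nearest each limit, and the homoeolog sets with the most members. The adjacent pairs were named after their values were seen. Alternatives changed the limits, scaled them by library mean, or required all bins. Genes of unplaced sequences (620 in *B. oleracea* and 3153 in *B. napus*) were left out. Only 138 and 2 of them had a value in every body bin. Of these, 0 met the rule, and they are too few to tell whether the class occurs there. Python 3.11.15, numpy 2.4.6, pandas 2.3.3, scipy 1.17.1 and matplotlib 3.10.9 were used.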

Additional observations from a re-analysis of the deposited data

Results flagged for a closer look

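In Cn the class was smaller than its mirror over the start bin, with 248 against 298 genes and a difference of −50. In the other (sub)genomes it was larger, by 125 genes in Co and 44 in An. The difference between (sub)genomes was not tested, since neither species has more than 1 library. Under the 3 alternatives tried for this count, the difference was between −22 and −18 in Cn, between 2 and 9 in An and between −1 and 9 in Co, where it changed sign with a limit of 30%.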

How the results depend on the processing

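Of 58 values under alternative settings, 27 stayed within the spread or within 1.5 times the reported count, 30 moved and 1 changed sign. The class had 54 (Co), 17 (An) and 22 (Cn) genes with an end bin limit of 30%, 120, 60 and 85 with earlier bins under 2%, and 146, 61 and 94 with each earlier bin under 5%. Under the 30% limit, the first downstream bin was at 15% or more in 57.4% (Co), 50.0% (An) and 50.0% (Cn), and a 3′ UTR was annotated in 17.6% (An) and 0% (Cn). With a downstream limit of 5%, the continuous share was 57.6% (Co), 57.1% (An) and 66.4% (Cn), and with 30% it was 11.4%, 8.57% and 12.1%. It was 50.0% in Co with limits scaled by library mean, and the median first downstream level in Co was 8.42%. The class minus its mirror over the start bin was −1 (Co), 2 (An) and −22 (Cn) with a limit of 30%, 9, 9 and −18 with the other bins under 2%, and 8, 9 and −21 with each other bin under 5%. The alternatives for these differences were chosen after seeing the data. Fewer genes pass stricter limits by construction. Under the 5 alternatives that changed the class itself, the first downstream share stayed above that of all genes in 15 of 15 comparisons. The 3′ UTR share stayed below that of all genes in 10 of 10. Stricter limits recount part of the same genes, some of them few, so these comparisons are not independent. No paired analysis was possible because each species has 1 library and no test was made. For the same reason no library could be left out. A coverage minimum could not be varied, since the fractions come without coverage, so low coverage and a true level of 0 look alike.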
